A study of Rattus norvegicus with 26 samples.

Results

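The transforming growth factor beta (TGF-beta) pathway was followed in rat spinal cord after compression injury through 9 genes of 32883 in the count table. They were the ligands Tgfb1, Tgfb2 and Tgfb3, the receptors Tgfbr1 and Tgfbr2, the signal transducer Smad3, the inhibitory Smad7, the nuclear corepressor Tgif1 and the TGF-beta-induced matrix protein Tgfbi. Tgif1 was chosen because its rise between Intact and sub-SCI cord was one of the clearest of all genes, and the other 8 were added as its pathway, so the members were chosen by the counts of Intact and sub-SCI libraries and the sub-SCI values of all 9 are given as a description without a test. All 9 were among the 17990 genes that passed the filter on low counts.

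Bulk RNA was sequenced from spinal cord segments of 5 mm around the lesion of adult female wild type Sprague-Dawley rats, labelled as postnatal day 70. Intact cords came from intact or sham rats (4 libraries), and sub-SCI cords (3 libraries) from rats taken 7 days after an aneurysm clip of 60 g had compressed the cord at T10 for 1 min. At that day the other injured rats received mesenchymal stem cells of human umbilical cord (+MSC) or the vehicle PBS (+PBS) intrathecally at the lumbar cord, and were taken 1, 2 or 4 weeks post-transplantation (wpt). The +PBS groups held 3, 2 and 4 libraries and the +MSC groups 3, 3 and 4 libraries at these weeks by the labels, and the study's methods give other numbers for 2 wpt. By the study's methods rats received cyclosporin A daily, so that +PBS and +MSC rats share immunosuppression, and the human cells were a xenograft whose reads were removed before counting.

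TGF-beta ligands are secreted in a latent complex and are released by integrins and proteases. The active ligand binds the type II receptor Tgfbr2, which recruits and phosphorylates the type I receptor Tgfbr1, and this kinase phosphorylates Smad2 and Smad3, which enter the nucleus with Smad4. Smad7 is induced by the pathway and blocks the receptor, while Tgif1 binds Smad2 and Smad3 in the nucleus and recruits histone deacetylases to repress their targets. In the injured cord TGF-beta is known as a signal of the fibrotic and glial scar and as a regulator of microglia and macrophages.

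Proximal promoters of 3 genes are shown, 2 ligands that differed much in size of response (Tgfb1 and Tgfb2) and the type I receptor (Tgfbr1). Apart from the motif counts given with them, no result below uses these sequences. They come from RefSeq, build GRCr8, 300 bases each from 250 before to 50 after the annotated start, written 5′ to 3′ on the strand of the gene, and 8 of the 9 genes had an entry. Tgif1 was not among them. Capitals mark TGTCA (the core of the site bound by TGIF proteins), CAGAC (the core of the Smad3 and Smad4 site), TGANTCA (an AP-1 site) and GGGCGG (a GC box), on either strand. The windows lie at chr1:90324062-90324361 on the plus strand for Tgfb1, at chr13:100792636-100792935 on the minus strand for Tgfb2 and at chr5:66449148-66449447 on the plus strand for Tgfbr1.
Tgfb1: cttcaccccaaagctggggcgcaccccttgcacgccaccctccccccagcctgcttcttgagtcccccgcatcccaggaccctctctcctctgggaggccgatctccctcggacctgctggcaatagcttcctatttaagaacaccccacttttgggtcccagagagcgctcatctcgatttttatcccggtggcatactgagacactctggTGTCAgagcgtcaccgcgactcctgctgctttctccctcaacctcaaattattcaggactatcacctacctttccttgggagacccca
Tgfb2: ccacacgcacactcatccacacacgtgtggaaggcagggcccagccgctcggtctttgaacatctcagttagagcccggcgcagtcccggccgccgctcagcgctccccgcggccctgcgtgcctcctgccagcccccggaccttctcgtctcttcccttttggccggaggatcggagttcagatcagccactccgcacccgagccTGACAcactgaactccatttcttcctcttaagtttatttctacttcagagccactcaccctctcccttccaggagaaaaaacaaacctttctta
Tgfbr1: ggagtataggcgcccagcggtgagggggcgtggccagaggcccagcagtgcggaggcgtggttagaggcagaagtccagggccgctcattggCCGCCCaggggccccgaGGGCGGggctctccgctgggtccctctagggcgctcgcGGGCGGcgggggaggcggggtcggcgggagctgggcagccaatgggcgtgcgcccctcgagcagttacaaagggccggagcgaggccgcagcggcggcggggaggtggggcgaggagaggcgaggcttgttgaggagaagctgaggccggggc

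Tgfb1 and Tgfb2 each hold 1 TGTCA match, and they are 2 of the 8 members with an entry, against 46.5% of 33469 promoters of the same length. Tgfbr1 holds 3 GGGCGG matches, and 5 of the 8 hold at least 1, against 33.1% of all. None of the 8 holds CAGAC or TGANTCA, against 50.1% and 7.33% of all, which says only that these letters are not in these windows. No window shown holds more than 1 of the 4 motifs.

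Total counts ranged from 19496602 to 43468509 per library. Markers of the cord's cell types differed between groups as well: the summed level of 7 neuronal markers was 8797 to 10753 CPM (counts scaled to library size by TMM normalization) in Intact and 393 to 1801 in sub-SCI, and that of 12 markers of microglia and macrophages was 371 to 603 in Intact and 3778 to 5037 in sub-SCI. In bulk tissue fewer cells of a type and less RNA per cell cannot be told apart, and this holds for every level below. The study's methods call the replicates biological, while the labels do not say that they were separate animals. No pair of libraries of 1 group was a duplicate, since their counts differed by more than sampling noise (chi-square per degree of freedom of 5.94 to 262). The replicate 1 library was the lowest of its group in 7 of 8 groups for Tgfbr1, in 6 of 8 for Tgfbr2, Smad3 and Tgfbi, and in 3 of 8 for Tgif1.

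Between Intact and sub-SCI, 8 of the 9 genes were higher in every sub-SCI library than in any Intact library, and Smad7 was at the same level. Over all genes tested 32.9% did not overlap in this direction. By the study's thresholds for a differentially expressed gene (DEG), 16.6% of all genes were higher. The thresholds are a log2 fold change beyond 1 in size together with an adjusted p below 0.01. Nothing is read from these counts because this contrast chose Tgif1. The median log2 fold change of the 9 was 2.37, that of all genes -0.02. In CPM per kb, which allows levels of different genes to be compared, Intact means ran from 2.89 ± 0.317 (SD, n = 4) for Tgif1 to 11.6 ± 1.69 for Smad7. In sub-SCI the range widened from 11.2 ± 2.62 (SD, n = 3) for Smad7 to 97.7 ± 50.2 for Tgfbi, with Tgfb1 at 87.2 ± 15.4, Tgfbr1 at 71.4 ± 18.7, Tgfbr2 at 58.8 ± 10.4, Tgfb2 at 22.6 ± 10.1, Tgif1 at 22.5 ± 1.63, Tgfb3 at 14.6 ± 5.71 and Smad3 at 13.9 ± 2.78.

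**Figure D1:**
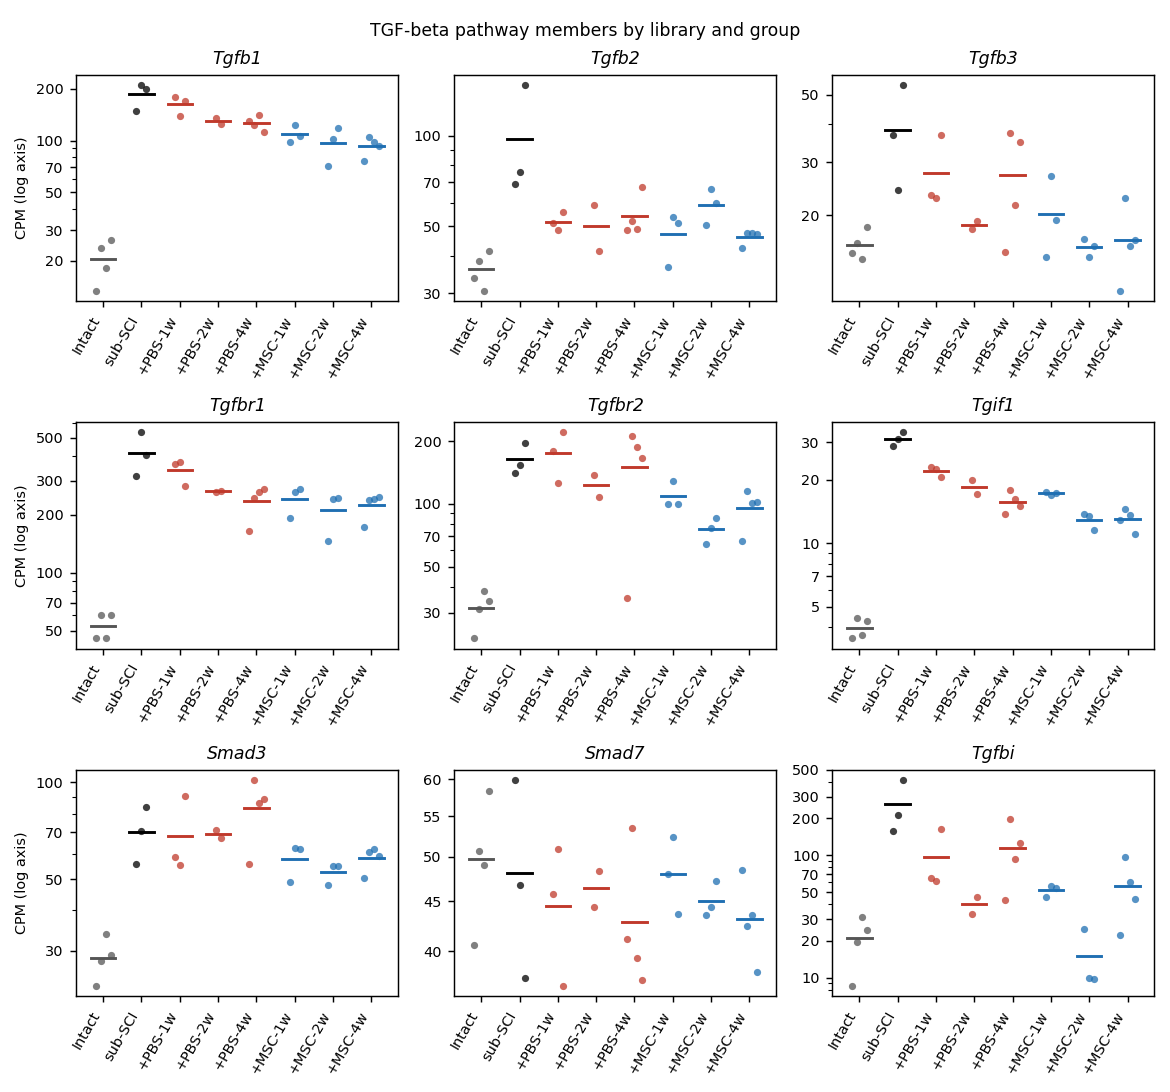
Level of each of the 9 genes in CPM on a log axis for every library (points) by group, with the group mean as a line, in grey for Intact, black for sub-SCI, red for +PBS and blue for +MSC. Tgif1 lies between 3.55 and 4.44 CPM in Intact and between 28.9 and 33.4 in sub-SCI, and Smad7 overlaps across the groups.

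Tgif1, the corepressor, was expressed at 3.55, 4.44, 3.70 and 4.29 CPM in the 4 Intact libraries, from 65 to 113 reads each. The 3 sub-SCI libraries held 28.9, 31.2 and 33.4 CPM, from 862 to 994 reads. The groups are far apart and the libraries of each lie close together. The log2 fold change was 2.96 (SE 0.123), a 7.78-fold difference. Among genes higher in sub-SCI Tgif1 ranked 2 by p-value, between Ninj1 (log2 fold change 3.08) and Ctsl (3.33). This rank restates how Tgif1 was chosen and is not a test result.

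The transcript of Tgfb1, the ligand best known from microglia and macrophages, was at 13.3, 23.5, 18.1 and 26.5 CPM in Intact and at 149, 211 and 199 CPM in sub-SCI. Every sub-SCI library was above every Intact library by a wide margin, a log2 fold change of 3.19 (SE 0.203) or 9.14-fold. Tgfb2, a ligand of neurons and astrocytes, had 30.5 to 41.4 CPM in Intact and 69.0, 75.6 and 148 CPM in sub-SCI. The third sub-SCI library stood far above the other 2, and the log2 fold change was 1.44 (SE 0.206). Tgfb3, the third ligand, had 14.4 to 18.2 CPM in Intact and 36.8, 24.2 and 54.0 CPM in sub-SCI, a log2 fold change of 1.26 (SE 0.294).

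The receptors differed more than Tgfb2 and Tgfb3. Tgfbr1, the type I receptor kinase, was at 45.6, 60.0, 45.9 and 60.0 CPM in Intact and at 315, 533 and 409 CPM in sub-SCI, a log2 fold change of 2.99 (SE 0.217). Tgfbr2, the type II receptor, was at 22.6, 31.2, 38.1 and 34.3 CPM in Intact and at 141, 154 and 196 CPM in sub-SCI, a log2 fold change of 2.37 (SE 0.363). Both receptors were thus several-fold higher with no overlap between groups.

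Downstream, Smad3 was at 23.3 to 33.8 CPM in Intact and at 55.6, 70.7 and 83.6 CPM in sub-SCI, a log2 fold change of 1.30 (SE 0.188). Smad7 was at 40.7, 50.7, 49.0 and 58.4 CPM in Intact and at 59.9, 46.8 and 37.5 CPM in sub-SCI. Its groups overlapped fully, with a log2 fold change of -0.05 (SE 0.153, 95% interval -0.37 to 0.27) that turned positive under some alternatives. Tgfbi, a secreted matrix protein that TGF-beta induces in fibroblasts and macrophages, was at 8.57, 19.5, 31.2 and 24.6 CPM in Intact and at 157, 213 and 412 CPM in sub-SCI. Its log2 fold change of 3.63 (SE 0.555) was the largest of the 9, with the widest spread.

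The +PBS groups show the injured cord without cells, after an intrathecal injection of vehicle. The study's methods do not say by group whether Intact and sub-SCI rats received cyclosporin A. Against these groups, time after injury therefore cannot be told apart from injection and drug. Tgif1 stayed above Intact at every week, by 2.45 (SE 0.122), 2.20 (SE 0.131) and 1.97 (SE 0.116) on the log2 scale at 1, 2 and 4 wpt. It is given here without a p-value because the Intact libraries that chose it are used again. Its libraries held 22.9, 22.3 and 20.6 CPM at 1 wpt. At 2 wpt they held 19.8 and 17.1, and at 4 wpt 13.7, 17.8, 16.2 and 14.9 CPM. All 9 values lie below the lowest sub-SCI library and above the highest Intact library.

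Of the other 8 genes, 7 rose against Intact at 1 wpt, 4 at 2 wpt and 7 at 4 wpt (edgeR's quasi-likelihood test, adjusted p under 0.05 over all genes). Of all genes tested 26.7%, 19.7% and 28.6% rose. By the DEG thresholds 5, 4 and 5 of the 8 were higher, against 13.5%, 8.84% and 13.3% of all genes. The median log2 fold change of the 8 was 1.74, 1.10 and 1.85, and that of all genes -0.01, 0.004 and 0.05. These 3 comparisons share the Intact libraries, so they are not independent of each other.

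**Figure D2:**
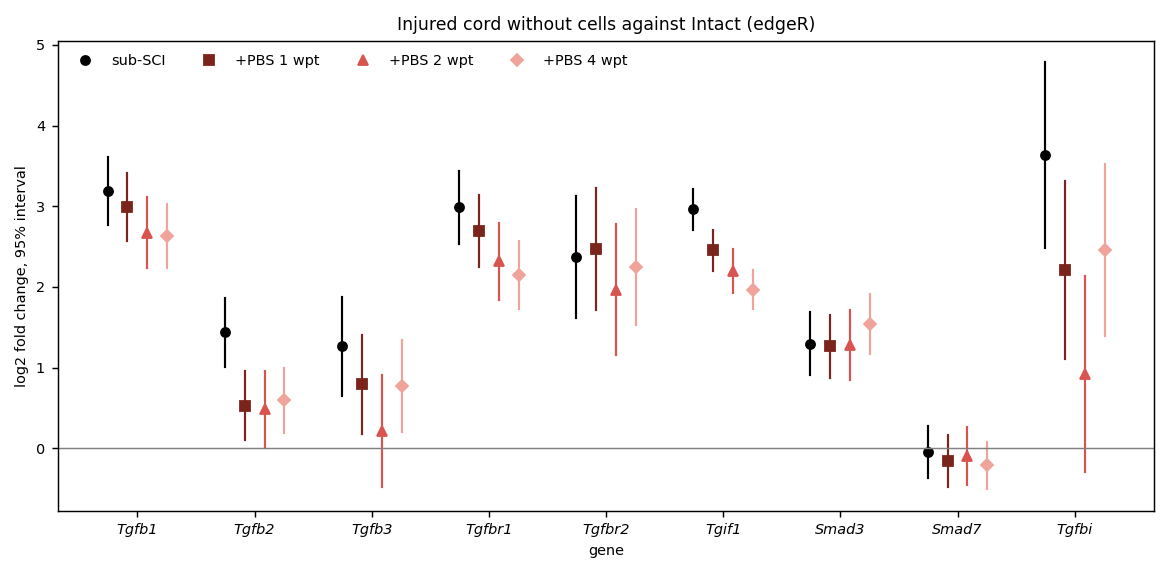
Log2 fold change against Intact with 95% intervals (lines) for the 9 genes in sub-SCI and in +PBS at 1, 2 and 4 wpt, from edgeR. The intervals of all 9 genes in sub-SCI, and of Tgif1 in every group, are a description and not a test. The Intact and sub-SCI libraries chose Tgif1. Tgfb1 lies between 2.63 and 3.19, Tgif1 between 1.97 and 2.96, and the intervals of Smad7 include 0 in all 4.

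Among the ligands, Tgfb1 kept the largest difference. It was at 179, 139 and 169 CPM at 1 wpt, at 136 and 125 at 2 wpt, and at 130, 123, 142 and 112 at 4 wpt, each far above the Intact libraries. Its log2 fold changes against Intact were 2.99, 2.67 and 2.63 (SE 0.202, 0.214 and 0.192, adjusted p = 2.86e-10, 9.24e-09 and 1.60e-09). Tgfb2 was at 51.3, 48.6 and 55.7 CPM at 1 wpt, at 58.8 and 41.6 CPM at 2 wpt, then at 48.5, 52.1, 49.1 and 67.7 CPM at 4 wpt, close above Intact throughout. Tgfb2 rose by 0.53 (SE 0.206, adjusted p = 0.0361) at 1 wpt and by 0.59 (SE 0.193, adjusted p = 0.0132) at 4 wpt on the log2 scale, and at 2 wpt the difference of 0.48 did not pass (adjusted p = 0.108). Tgfb3 was at 23.3, 22.8 and 36.7 CPM at 1 wpt, at 18.0 and 19.2 CPM at 2 wpt, then at 15.2, 37.4, 21.6 and 35.0 CPM at 4 wpt, where the lowest library lay inside the Intact range. Tgfb3 rose by 0.79 (SE 0.295, adjusted p = 0.0283) and 0.77 (SE 0.277, adjusted p = 0.0233) at 1 and 4 wpt, with a difference of 0.22 at 2 wpt (adjusted p = 0.644).

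The calls of Tgfb2 and Tgfb3 were lost when single libraries were left out. At 1 wpt Tgfb3 had an adjusted p of 0.0634 without Intact replicate 3 and 0.189 without +PBS-1w replicate 3, and Tgfb2 had 0.0960 and 0.109 without the same libraries and 0.0672 without +PBS-1w replicate 1. At 4 wpt Tgfb3 had 0.0577, 0.10 and 0.0806 without Intact replicate 3, +PBS-4w replicate 2 or +PBS-4w replicate 4, and Tgfb2 had 0.0577 without +PBS-4w replicate 4. At 2 wpt Tgfb2 passed without sub-SCI replicate 3 (adjusted p = 0.0309).

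Both receptors rose at all 3 weeks. The level of Tgfbr1 was 365, 376 and 282 CPM at 1 wpt. It was 261 and 266 CPM at 2 wpt, then 165, 244, 261 and 270 CPM at 4 wpt. The lowest of these is far above the highest Intact library, and the log2 fold changes were 2.69, 2.32 and 2.15 (SE 0.215, 0.229 and 0.203, adjusted p = 2.58e-09, 1.27e-07 and 3.57e-08). The level of Tgfbr2 was 179, 126 and 221 CPM at 1 wpt. It was 138 and 108 CPM at 2 wpt, then 35.4, 211, 187 and 166 CPM at 4 wpt. Replicate 1 at 4 wpt lies inside the Intact range while the other 3 lie well above it. Tgfbr2 rose by 2.47, 1.96 and 2.25 (SE 0.364, 0.390 and 0.347, adjusted p = 8.94e-06, 5.49e-04 and 1.68e-05), and by 2.62 at 4 wpt without that library (adjusted p = 1.13e-08).

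Smad3 was at 58.8, 55.3 and 91.0 CPM at 1 wpt, at 71.0 and 67.3 at 2 wpt, and at 55.9, 102, 86.2 and 88.6 at 4 wpt. No library overlapped Intact, and Smad3 rose by 1.26, 1.28 and 1.54 on the log2 scale (SE 0.188, 0.207 and 0.179, adjusted p = 1.03e-05, 6.51e-05 and 4.89e-07). Smad7 ranged from 36.9 to 51.0 CPM at 1 wpt, from 44.5 to 48.4 at 2 wpt and from 37.4 to 53.4 at 4 wpt, within or just below its Intact range. Its differences of -0.16, -0.10 and -0.21 did not pass (adjusted p = 0.405, 0.694 and 0.221), with 95% intervals from -0.51 to 0.26 over the 3 weeks.

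Tgfbi was at 65.5, 62.1 and 164 CPM at 1 wpt, at 33.4 and 46.0 at 2 wpt, and at 43, 199, 93.4 and 126 at 4 wpt. Its libraries at 2 wpt lie just above the highest Intact library of 31.2 CPM. The log2 fold change was 2.21 (SE 0.532, adjusted p = 0.00144) at 1 wpt, 0.92 (SE 0.584, adjusted p = 0.229) at 2 wpt and 2.46 (SE 0.514, adjusted p = 4.26e-04) at 4 wpt.

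Against sub-SCI, 1, 3 and 3 of the 8 tested genes fell at 1, 2 and 4 wpt, and none rose. Over all genes 1.51%, 8.52% and 11.6% fell and 1.33%, 9.99% and 13.4% rose. Tgfb2 fell at all 3 weeks, by 0.91, 0.96 and 0.84 on the log2 scale (SE 0.222, 0.254 and 0.205, adjusted p = 0.0309, 0.0123 and 0.00463). These calls lean on sub-SCI replicate 3, without which the differences were -0.48, -0.53 and -0.41 (adjusted p = 0.312, 0.105 and 0.108). Without +PBS-1w replicate 1 or 2 the call at 1 wpt was lost too (adjusted p = 0.0924 and 0.128), and without +PBS-2w replicate 2 that at 2 wpt (adjusted p = 0.237). With edgeR on the groups compared all 3 were lost (adjusted p = 0.234, 0.142 and 0.0905), and with DESeq2 on these groups those at 1 and 2 wpt (adjusted p = 0.0846 and 0.0567).

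At 2 wpt Tgfb3 fell by 1.05 (SE 0.364, adjusted p = 0.0490) and Tgfbi by 2.72 (SE 0.699, adjusted p = 0.0102). The call of Tgfb3 lay so near the threshold that leaving out any of many libraries ended it, up to an adjusted p of 0.245 without +PBS-2w replicate 2. Tgfbi missed the threshold without sub-SCI replicate 3 (adjusted p = 0.0513) and without either +PBS-2w library (adjusted p = 0.0791 and 0.0981). At 4 wpt Tgfb1 fell by 0.56 (SE 0.192, adjusted p = 0.0368) and Tgfbr1 by 0.83 (SE 0.208, adjusted p = 0.00559). Tgfb1 lost this call without sub-SCI replicate 2 or 3 or +PBS-4w replicate 2 or 4 (adjusted p = 0.139, 0.126, 0.0685 and 0.0914), and Tgfbr1 without sub-SCI replicate 2 (adjusted p = 0.0510). With edgeR on the groups compared both were lost (adjusted p = 0.0617 and 0.0554), as was Tgfb3 at 2 wpt (adjusted p = 0.0962). Tgfbr1 also passed at 2 wpt, where its difference was -0.67 (adjusted p = 0.0715), without sub-SCI replicate 1, +MSC-2w replicate 1 or +PBS-4w replicate 1 (adjusted p = 0.0320, 0.0487 and 0.0359). Tgfbi passed at 4 wpt without +PBS-4w replicate 2 (adjusted p = 0.0433).

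Tgif1 had log2 differences from sub-SCI of -0.51 (SE 0.125), -0.76 (SE 0.143) and -0.99 (SE 0.116), described without a test. Smad3 differed from sub-SCI by -0.03, -0.02 and 0.25 (adjusted p = 0.947, 0.970 and 0.359) and Tgfbr2 by 0.10, -0.41 and -0.13 (adjusted p = 0.915, 0.552 and 0.832). In order of the group means, Tgif1 was lowest in Intact and highest in sub-SCI. In its order only Intact and +MSC-2w, +PBS-2w and +PBS-1w, and +PBS-1w and sub-SCI were neighbours without overlap. For Smad3 the highest mean was in +PBS-4w, 83.1 ± 19.4 CPM (SD, n = 4), and for Tgfbr2 in +PBS-1w, 175 ± 47.7 CPM (SD, n = 3), but in both genes only Intact stood clear of its neighbour. All 7 neighbouring pairs overlapped for Smad7 and Tgfb3.

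The comparison of +MSC with +PBS at the same week shows what accompanied the transplanted cells. At each week 0 of the 9 genes passed (edgeR's quasi-likelihood test, smallest adjusted p = 0.163, 0.197 and 0.0910 at 1, 2 and 4 wpt), while 3, 2 and 5 had an unadjusted p under 0.05, against 17.9%, 12.3% and 22.5% of all genes. Few genes passed at all, since 0.0611%, 0% and 0.928% of those tested fell and 0.0389%, 0% and 3.07% rose. DESeq2 on all libraries called 1, 1 and 0 of the 9 lower, and DESeq2 on the groups compared 2, 2 and 0. The shares above are those of edgeR. The share of all genes that DESeq2 called was not computed, so its counts cannot be set against one. At each week 8 of the 9 fitted differences were negative, all but that of Smad7 at 1 and 4 wpt and of Tgfb2 at 2 wpt. In 4, 7 and 2 genes every +MSC library was below every +PBS library, against 11.6%, 18.4% and 4.47% of all genes.

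Tgif1 was at 17.5, 16.9 and 17.3 CPM in +MSC at 1 wpt, at 13.7, 13.5 and 11.6 at 2 wpt, and at 12.8, 14.5, 13.6 and 11.0 at 4 wpt. Of these 10 libraries, 9 were below the lowest +PBS library of their week, and the exception was 1 at 4 wpt. The log2 differences were -0.35 (SE 0.125), -0.51 (SE 0.139) and -0.27 (SE 0.109), with adjusted p = 0.163, 0.197 and 0.152. The mean of the 3 weeks was -0.38 (SE 0.072, 95% interval -0.53 to -0.23, adjusted p = 0.00155), a decrease to 0.771 of +PBS, and it passed in all 26 fits that left out 1 library. Tgif1 in +MSC was still 3.23 to 4.31 times its Intact mean.

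Over the mean of the 3 weeks 5 of the 9 genes fell and 0 rose, against 10.9% and 12.3% of all genes. None met the DEG thresholds, which 0.956% of all genes met as lower and 1.61% as higher. The median log2 difference of the 9 was -0.38, that of all genes -0.02. Besides Tgif1, these were Tgfb1, Tgfbr2, Smad3 and Tgfbi, that is a ligand, a receptor, the transducer and the matrix protein. The count was 2 without +PBS-1w replicate 3 (Tgif1 and Tgfb1), 3 without +PBS-2w replicate 1 (these and Tgfbi) and 7 without +PBS-4w replicate 1. The share of all genes that fell in these fits was not computed.

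**Figure D3:**
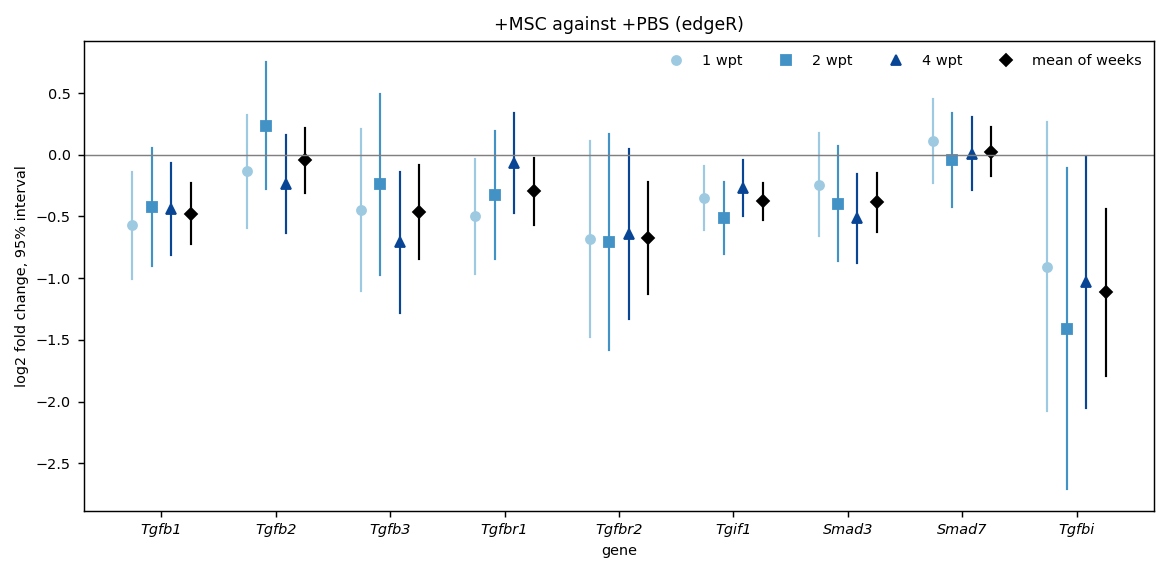
Log2 difference of +MSC from +PBS with 95% intervals for the 9 genes at 1, 2 and 4 wpt and for the mean of the weeks, from edgeR. The mean is below 0 in 8 genes and its interval lies below 0 in 7, of which 5 passed after adjustment (Tgif1 at -0.38, Tgfb1 at -0.48, Tgfbi at -1.12, Smad3 at -0.38 and Tgfbr2 at -0.67).

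Tgfb1 was at 98.0, 123 and 106 CPM in +MSC at 1 wpt, at 70.7, 103 and 118 at 2 wpt, and at 75.9, 105, 98.8 and 93.0 at 4 wpt. All 10 libraries were below the lowest +PBS library of their week. The mean difference was -0.48 (SE 0.119, 95% interval -0.73 to -0.23, adjusted p = 0.00760), a ratio of 0.718, and it passed in all 26 fits that left out 1 library. In +MSC, Tgfb3 was at 14.6 to 26.9, 14.6 to 16.7 and 11.3 to 22.8 CPM at the 3 weeks, overlapping Intact, and Tgfb2 at 36.6 to 53.7, 50.7 to 66.6 and 42.4 to 47.6 CPM. For these ligands the mean was -0.04 for Tgfb2 (SE 0.127, interval -0.31 to 0.22, adjusted p = 0.836) and -0.47 for Tgfb3 (SE 0.182, interval -0.84 to -0.09, adjusted p = 0.0684). Tgfb2 was lower in +MSC at 4 wpt in every library (42.4 to 47.6 against 48.5 to 67.7 CPM) and higher in mean at 2 wpt (59.1 against 50.2 CPM), both within the error of the fit (adjusted p = 0.487 and 0.744). Tgfb3 passed without +MSC-1w replicate 2, +MSC-4w replicate 2 or +PBS-4w replicate 1 (adjusted p = 0.0410, 0.0382 and 0.0148).

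Tgfbr2 was at 99.8, 128 and 100 CPM in +MSC at 1 wpt, at 64.4, 76.7 and 85.7 at 2 wpt, and at 66.3, 115, 101 and 102 at 4 wpt. The mean difference was -0.67 (SE 0.219, adjusted p = 0.0307), and 18 of 26 fits that left out 1 library kept the call. It was lost without any of +MSC-1w replicates 1 and 3, +PBS-1w replicate 3, +MSC-2w replicate 1, +PBS-2w replicate 1, +MSC-4w replicate 1, and +PBS-4w replicates 2 and 3 (highest adjusted p = 0.108) and with edgeR on the groups compared (adjusted p = 0.0538), and was -0.81 (adjusted p = 2.26e-04) without +PBS-4w replicate 1. Tgfbr1 was at 193 to 271, 145 to 243 and 173 to 247 CPM in +MSC at the 3 weeks. Its mean difference of -0.30 (SE 0.129) did not pass (adjusted p = 0.101), with an interval of -0.56 to -0.03, and it passed without +PBS-4w replicate 1 (adjusted p = 0.0248).

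At 4 wpt the calls depended on the +PBS-4w replicate 1 library. Without it 4 of the 9 genes fell at that week in place of 0, namely Tgfb3 by 0.93 (adjusted p = 0.0223), Tgfbr2 by 0.99 (adjusted p = 0.00486), Tgif1 by 0.35 (adjusted p = 0.0315) and Smad3 by 0.69 (adjusted p = 0.00888). The marker sums of this library stood apart from the other 3 of its group, with neuronal markers at 5212 CPM against 1523 to 2127, fibroblast markers at 1177 against 3246 to 3981 and oligodendrocyte markers at 27178 against 15534 to 20243, and their part in the result was not tested. Over all genes the counts of +PBS-4w replicate 1 differed from the other 3 by a chi-square per degree of freedom of 171 to 262. Among those 3 it was 27.8 to 40.2. Without all replicate 1 libraries, a setting chosen after the data were seen, 2 of the 9 genes fell at 4 wpt. The share of all genes that fell in these fits was not computed, so nothing is read from these counts about the 9 genes.

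Smad3 was at 49.0, 62.5 and 61.9 CPM in +MSC at 1 wpt, at 47.8, 55.1 and 54.8 at 2 wpt, and at 50.4, 60.8, 62.2 and 59.1 at 4 wpt. All 10 libraries were below the +PBS mean of their week, and 5 of them were below the lowest +PBS library of their week. At 1 wpt the difference was -0.24, and it was 0.019 without +PBS-1w replicate 3. The mean difference of the weeks was -0.38 (SE 0.116, adjusted p = 0.0211). It was lost without +PBS-1w replicate 3 or +PBS-2w replicate 1 (adjusted p = 0.0610 and 0.0676). Smad7 held 38.1 to 52.4 CPM over the 10 +MSC libraries, with a mean difference of 0.02 (SE 0.095, interval -0.17 to 0.22, adjusted p = 0.880) whose sign changed with the fit.

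Tgfbi had the largest difference of the 9, with the largest SE. It was at 45.6, 55.7 and 54.5 CPM in +MSC at 1 wpt, at 25.2, 9.89 and 9.76 at 2 wpt, and at 22.3, 97.7, 61.0 and 44.3 at 4 wpt. At 2 wpt 2 of the 3 libraries were at the level of the lowest Intact library. The mean difference was -1.12 (SE 0.325, interval -1.79 to -0.44, adjusted p = 0.0179), a ratio of 0.462, and without +PBS-1w replicate 3, which held 164 CPM, it was -0.91 (adjusted p = 0.0550).

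Whether the difference changed from week to week was tested as an interaction. None of the 9 passed in any of the 3 contrasts of weeks (smallest adjusted p = 0.999, edgeR), 0 had an unadjusted p under 0.05 and DESeq2 on all libraries called 0. Over all genes 0% passed and 2.67%, 3.9% and 2.3% had an unadjusted p under 0.05. The intervals were wide, for Tgfbi from -2.26 to 1.25 between 2 and 1 wpt.

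The rest of the pathway was followed through 67 other genes in 7 lists. These lists were drawn up with earlier results of these data known, so their counts are a description. The genes named are mostly those with the largest changes of their list in the same comparison. Their values too describe the pathway and do not test it. In sub-SCI against Intact 40 rose and 12 fell, against 30.5% and 30.9% of all genes, with a median log2 fold change of 0.93. Of the 10 latency and activation genes 6 rose and 1 fell. Ltbp2, a latent TGF-beta binding protein of the matrix, rose by 5.17 (SE 0.648, adjusted p = 6.24e-07), and Nrros, which holds latent TGF-beta on microglia, rose by 3.33 (SE 0.296, adjusted p = 5.52e-09). Itgb8, a subunit of an integrin that activates latent TGF-beta, fell by 1.83 (SE 0.439, adjusted p = 0.00109).

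Of the 10 other receptors and co-receptors 3 rose and 5 fell, against 30.5% and 30.9% of all genes, with a median of -0.47. The co-receptor Eng rose by 2.17 (SE 0.231, adjusted p = 6.92e-08) and Acvrl1, a type I receptor of endothelium, by 1.27 (SE 0.222, adjusted p = 4.09e-05). The BMP receptor Bmpr1b fell by 1.30 (SE 0.347, adjusted p = 0.00265) and the activin receptor Acvr2b by 1.05 (SE 0.307, adjusted p = 0.00519). Genes of this list moved in both directions, and the share that rose was near that of all genes. Among 6 other Smads, the inhibitory Smad6 rose by 1.26 (SE 0.313, adjusted p = 0.00147) and Smad2 by 0.64 (SE 0.125, adjusted p = 1.37e-04), Smad1, of the BMP branch, by 0.61 (SE 0.075, adjusted p = 5.57e-07), and Smad9, of the same branch, fell by 3.07 (SE 0.643, adjusted p = 2.88e-04).

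Of 9 negative regulators 6 rose and 1 fell. Tgif2, the paralog of Tgif1, rose by 2.34 (SE 0.308, adjusted p = 1.22e-06), and the decoy receptor Bambi by 1.13 (SE 0.306, adjusted p = 0.00297), while the Smad phosphatase Ppm1a fell by 0.54 (SE 0.114, adjusted p = 2.93e-04). Of 10 other ligands 5 rose and 2 fell, with Gdf15 up by 5.09 (SE 0.486, adjusted p = 1.48e-08), Bmp7 up by 2.62 (SE 0.527, adjusted p = 1.94e-04), Inhbb at -1.32 (SE 0.183, adjusted p = 2.50e-06) and Gdf11 at -0.78 (SE 0.139, adjusted p = 4.84e-05). Of 8 extracellular antagonists 3 rose and 2 fell. Bgn rose by 3.34 (SE 0.577, adjusted p = 3.54e-05) and the activin binder Fst by 3.27 (SE 0.663, adjusted p = 2.08e-04), whereas the BMP antagonists Grem1 and Nog fell by 1.67 and 0.84 (SE 0.479 and 0.278, adjusted p = 0.00453 and 0.0125). Without sub-SCI replicate 2 the call of Nog was lost (adjusted p = 0.0676).

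All 14 genes of the list of known TGF-beta response genes rose, with a median of 2.61. The matrix glycoprotein Tnc rose by 6.0 (SE 0.561, adjusted p = 1.09e-08). This list was chosen as genes that TGF-beta induces elsewhere, and several of its members are matrix genes of fibroblasts. It too was drawn up with earlier results known, so its count is not independent evidence of a response to TGF-beta.

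In +MSC against +PBS over the weeks, 28 of the 67 genes fell and 1 rose, with a median of -0.41 against -0.02 for all genes, of which 10.9% fell and 12.3% rose. The count of calls was 19 without +PBS-1w replicate 3 and 13 without +PBS-2w replicate 1. Of the latency genes 6 fell, led by Ltbp2 at -1.61 (SE 0.360, adjusted p = 0.00405) and Ltbp1 at -1.14 (SE 0.288, adjusted p = 0.00791). Among receptors Tgfbr3, the co-receptor betaglycan, fell by 0.69 (SE 0.218, adjusted p = 0.0257) and Acvrl1 by 0.60 (SE 0.137, adjusted p = 0.00437), Eng fell too, and the activin receptor Acvr1b rose by 0.28 (SE 0.091, adjusted p = 0.0309). Smad6 fell by 0.63 (SE 0.192, adjusted p = 0.0223) and Smad2 by 0.24 (SE 0.077, adjusted p = 0.0280).

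Of the negative regulators 2 fell, Tgif2 by 0.65 (SE 0.183, adjusted p = 0.0154) and Pmepa1, which sequesters Smads, by 0.31 (SE 0.087, adjusted p = 0.0135). Of the other ligands 4 fell, with Bmp7 at -1.77 (SE 0.323, adjusted p = 0.00113) and Bmp6 at -1.28 (SE 0.300, adjusted p = 0.00526), and of the antagonists 3, with Bgn at -1.27 (SE 0.341, adjusted p = 0.0117) and Fst at -1.18 (SE 0.414, adjusted p = 0.0436). Of the 14 response genes 8 fell and all 14 had a negative difference. Lox, which cross-links collagen, was at -1.48 (SE 0.423, adjusted p = 0.0159) and Ccn2, the connective tissue growth factor, at -1.25 (SE 0.405, adjusted p = 0.0298). Without +PBS-2w replicate 1 the calls of Tgfbr3, Acvr1b, Smad6, Smad2, Tgif2, Fst, Lox and Ccn2 were lost (adjusted p from 0.0523 for Lox to 0.167 for Acvr1b). Fst, the least stable, passed in 12 of 26 fits that left out 1 library and Ccn2 in 18. At 1 and 2 wpt 0 of the 67 genes passed. At 4 wpt 1 latency gene fell and 1 negative regulator rose, against 0.928% and 3.07% of all genes.

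**Figure D4:**
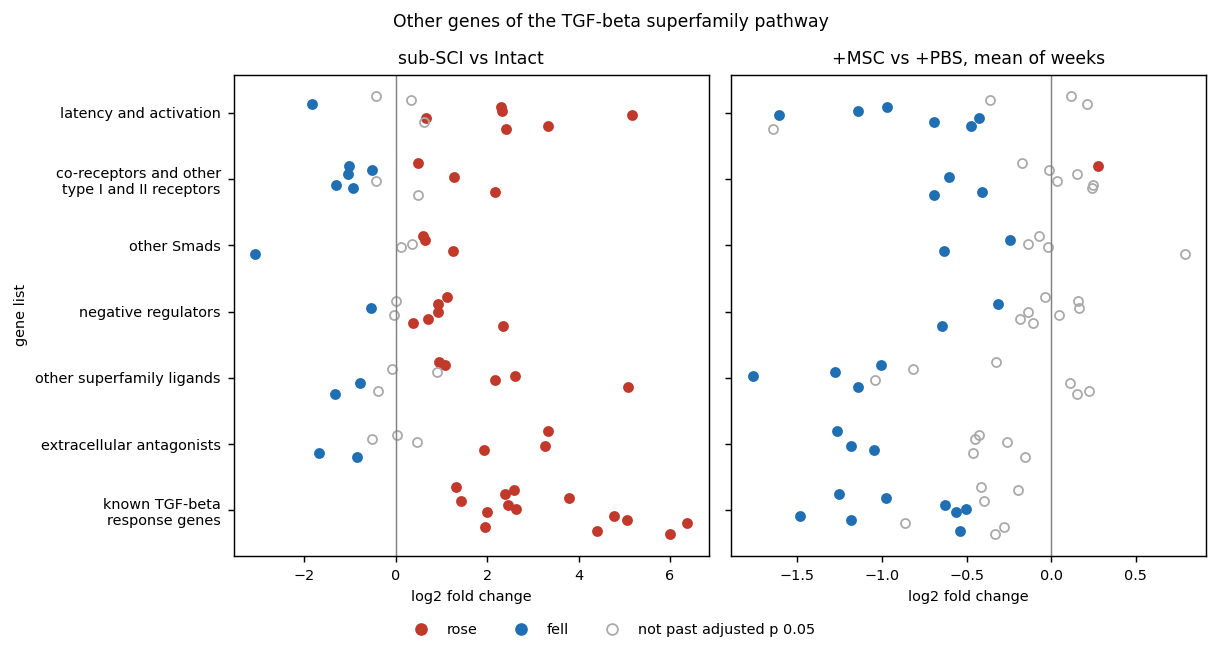
Log2 fold change of each of 67 further pathway genes in 7 lists, for sub-SCI against Intact (left) and for +MSC against +PBS over the weeks (right); filled points passed an adjusted p of 0.05 (red rose, blue fell) and open grey points did not. All 14 response genes rose on the left and 28 of the 67 genes fell on the right, where 1 rose.

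Markers of cell types moved with these differences, and their part in the results was not tested. In sub-SCI all 12 markers of microglia and macrophages rose (median log2 fold change 3.56), 7 of 8 fibroblast markers rose (3.03), and all 7 neuronal markers fell (-3.19). The summed fibroblast markers were 102 to 1022 CPM in Intact and 6762 to 13684 in sub-SCI, with no listed gene at 0 in any group. Of 7 endothelial markers listed 6 were in the table, and Cldn5 was at 0 in every group. In +MSC against +PBS over the weeks 5 of 12 microglia and macrophage markers fell (median -0.31), 7 of 8 fibroblast markers fell (-1.23), 2 of 5 tested endothelial markers fell (-0.35), and 7 of 7 neuronal markers rose (1.10). Astrocyte markers fell in 4 of 7 in sub-SCI and rose in 2 of 7 in +MSC. Oligodendrocyte markers fell in 6 of 6 in sub-SCI and passed in 0 of 6 in +MSC, where all 6 had a positive difference (median 0.30). Of the 5 Schwann cell markers 1 rose in sub-SCI and 0 fell, while 4 had a negative difference that did not pass (median of the 5 -0.73). In +MSC 0 of the 5 passed and all 5 had a negative difference (median -0.70).

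Across the 26 libraries, log2 Tgfb1 followed the log2 sum of the microglia and macrophage markers with Pearson's r of 0.97, Tgfbr1 with 0.95 and Tgif1 with 0.94, while Tgfbi followed the fibroblast sum with 0.95. The libraries fall into 8 groups that differ in both measures. After removal of the group means, r with the microglia and macrophage sum was 0.56 for Tgfb1, 0.34 for Tgfbr1 and -0.01 for Tgif1. With the fibroblast sum it was 0.89 for Tgfbi, 0.73 for Smad3 and 0.67 for Tgfbr2. Other lists gave values of like size within groups. For Tgfbi r was 0.77 with endothelial and 0.75 with Schwann cell markers, and for Tgfbr2 0.74 with endothelial and -0.70 with neuronal markers. For Smad3 it was 0.72 with endothelial, -0.75 with neuronal and -0.78 with oligodendrocyte markers. For Tgfb1 it was 0.43 with fibroblast, 0.43 with Schwann cell, -0.03 with endothelial, -0.03 with astrocyte, -0.25 with neuronal and -0.31 with oligodendrocyte markers. For Tgfbr1 it was 0.24 with fibroblast, 0.15 with astrocyte, 0.13 with endothelial, 0.006 with Schwann cell, -0.10 with oligodendrocyte and -0.27 with neuronal markers. For Tgif1 the within-group r was 0.45 with fibroblast, 0.39 with endothelial and 0.37 with Schwann cell markers. It was -0.34 with neuronal, -0.34 with oligodendrocyte and -0.26 with astrocyte markers. For Smad7 the within-group r was 0.24 with the microglia and macrophage sum and 0.008 with the fibroblast sum.

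**Figure D5:**
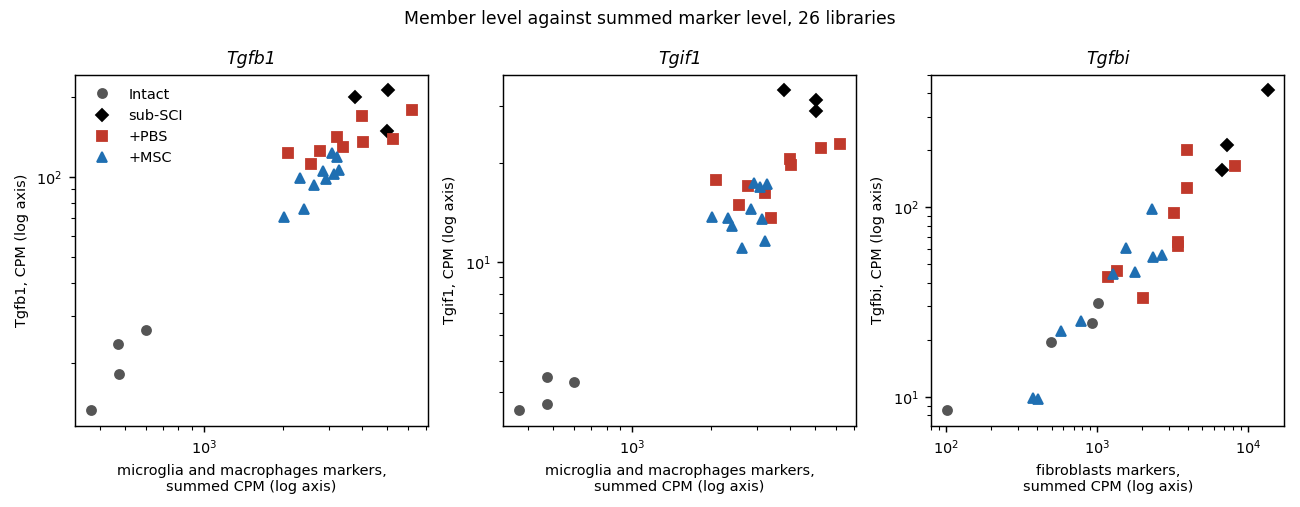
Level of Tgfb1, Tgif1 and Tgfbi in 26 libraries against the summed CPM of 12 microglia and macrophage markers or 8 fibroblast markers, both axes log; symbols give Intact, sub-SCI, +PBS and +MSC. Intact libraries lie at 371 to 603 CPM of microglia and macrophage markers, apart from all others. Tgfbi rises with the fibroblast sum over the 26 libraries (r of 0.95 of log2 values), though not within every group.

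The genes whose profile over the 26 libraries was most like that of each member differed between members. For Tgif1 these were Ctsc, Arpc1b, Clic1, Cd300a and Unc93b1 (r of 0.973 to 0.977), for Tgfb1 Stxbp2, Cmtm3 and Hk3 (0.988 to 0.989), for Tgfbr1 Cd53, Vav1 and Rab32 (0.980 to 0.984) and for Tgfbr2 Dab2, Ano6 and Rreb1 (0.976 to 0.987). The DNA replication genes Rrm1 and Mcm2, with Mms22l, were closest to Tgfb2 (0.879 to 0.883). Fam114a1, Col5a2 and Kazald1 were closest to Tgfb3 (0.900 to 0.910), Kdelr3, Emp1 and Ecm1 to Tgfbi (0.966 to 0.971), Ctnna1, Btbd19 and Agpat2 to Smad3 (0.957 to 0.962), and Siah2, Adamts4 and Lipe to Smad7 (0.630 to 0.689). After removal of the group means the closest to Tgif1 were Msh5, Fancm, Pla2g2a, Ikzf3 and Zkscan3 (0.707 to 0.762), none of them in the first list. With 26 libraries and 17990 genes such values are a description.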

How the data were processed

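The authors made the deposited counts, which are whole numbers of read pairs per gene, from poly(A)-selected paired-end libraries. Per the labels and the study's methods, reads were trimmed with Trim Galore 0.5.0, reads that mapped to the human genome with HISAT2 2.1.0 were removed, and the rest were mapped to Rnor6, filtered with SAMtools 1.9 and counted with featureCounts 1.6.4. The annotation release and strand setting are not given in the sources used here. Removing human reads can also remove rat reads of conserved genes.

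The test was edgeR 4.0.16 in R 4.3.3 (TMM, filterByExpr, quasi-likelihood test, 1 fit of 26 libraries in 8 groups), and p-values were adjusted by Benjamini-Hochberg over 17990 genes. Of 32883 genes 6513 had no count. CPM used TMM-scaled totals, and per-kb values the deposited gene lengths. The 9 genes and all lists were chosen with earlier results of these data known. In each pathway list the 2 genes with the largest absolute log2 fold change in each direction among those with an adjusted p under 0.05 are named, in sub-SCI against Intact and in +MSC against +PBS over the weeks, and the closest 5 genes by correlation for Tgif1 and 3 for each other member. A gene that this rule names is not reported here. Smad1, and Eng in +MSC, were named after their values were seen. No p-value is given for any of the 9 in sub-SCI against Intact, nor for Tgif1 in comparisons that reuse those libraries. Alternatives were DESeq2 1.42.0, edgeR on the groups compared, median-of-ratios scaling, no filter or at least 10 counts in every library, a replicate block and leaving out each library. A term for replicate 1 and leaving out all replicate 1 libraries were chosen after seeing the data. The tests were also run on simulated data. The outcome is not given here, and nothing is read from it about the power of the weekly comparisons. Figures used matplotlib 3.10.9.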

Additional observations from a re-analysis of the deposited data

Results flagged for a closer look

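In groups of 4 libraries the lowest or highest value was compared with its neighbour by Dixon's ratio, and 3 of 27 groups checked held a library that stood apart, where chance gives about 1 in 20. Tgfbr2 was at 35.4 CPM in +PBS-4w replicate 1, and the nearest other library of the group held 166 CPM. Tgfbr1 was at 173 CPM in +MSC-4w replicate 1, against 237 CPM in the nearest other library. Tgfb2 was at 42.4 CPM in +MSC-4w replicate 1, against 47.1 CPM in the nearest. All 3 are replicate 1 libraries and the lowest of their group.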

How the results depend on the processing

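Over 9 alternatives the counts of called genes stayed within 1.5 times in 106 of 117 results, and the 11 others were as follows. In +MSC against +PBS, where 0 of the 9 genes passed at each week, DESeq2 on all libraries called 1 at 1 wpt and 1 at 2 wpt, DESeq2 on the groups compared called 2 and 2, and at 4 wpt the replicate block gave 1, a term for replicate 1 gave 1 and leaving out all replicate 1 libraries gave 2. Against sub-SCI, +PBS at 1 wpt went from 1 to 0 with DESeq2 or edgeR on the groups compared, and with edgeR on the groups compared +PBS went from 3 to 1 at 2 wpt and from 3 to 0 at 4 wpt. The mean of the weeks had 5 genes, and 4 to 7 over the alternatives (7 with the replicate block), and the further pathway genes 29, and 25 to 34. Shares of all genes called under the alternatives, and with 1 library left out, were not computed beside these counts.

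Leaving out 1 library gave 5 to 7, 4 to 5 and 5 to 7 genes for +PBS against Intact at 1, 2 and 4 wpt, 0 to 1, 0 to 4 and 1 to 3 for +PBS against sub-SCI, 0 to 0, 0 to 0 and 0 to 4 for +MSC against +PBS, 2 to 7 for the mean of the weeks and 13 to 39 for the further pathway genes.

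Of 1228 values of single genes under the alternatives, 1161 kept direction and side of the threshold, 24 lost a call, 27 gained one, 1 untested value (Tgif1 in +PBS against sub-SCI at 2 wpt, -0.94 without all replicate 1 libraries) moved beyond the replicate spread, and 15 turned sign. Smad7 in sub-SCI against Intact was 0.0089 without the filter and 0.0020 with at least 10 counts. Smad7 in +MSC against +PBS at 4 wpt was -0.014 with at least 10 counts and -0.063 without all replicate 1 libraries, and at 2 wpt 0.020 with the replicate block. Smad3 in +PBS against sub-SCI at 2 wpt was 0.11 with the replicate block and 0.069 with a term for replicate 1. Without all replicate 1 libraries, +PBS against sub-SCI was -0.034 for Tgfbr2 and 0.045 for Smad7 at 1 wpt, 0.17 for Smad7 at 2 wpt, and 0.067 for Tgfbr2 and 0.0032 for Smad7 at 4 wpt. In the same setting +MSC against +PBS was 0.0091 for Tgfb2 at 1 wpt, and over the weeks 0.12 for Tgfb2 and -0.0097 for Smad7. The causes were not tested.

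When single libraries were left out, Smad7 ranged from -0.24 to 0.10 in sub-SCI against Intact, from -0.26 to 0.080, -0.20 to 0.14 and -0.32 to 0.025 in +PBS against sub-SCI, from -0.010 to 0.22, -0.093 to 0.017 and -0.051 to 0.13 in +MSC against +PBS, and from -0.015 to 0.066 over the weeks. Against sub-SCI, Tgfbr2 ranged from -0.10 to 0.29 at 1 wpt and -0.34 to 0.19 at 4 wpt, and Smad3 from -0.30 to 0.11 at 1 wpt and -0.16 to 0.13 at 2 wpt. In +MSC against +PBS, Tgfb2 ranged from -0.24 to 0.019 and Smad3 from -0.37 to 0.019 at 1 wpt, Tgfbr1 from -0.23 to 0.040 at 4 wpt, and Tgfb2 from -0.12 to 0.025 over the weeks.

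Replicate numbers were not taken as pairs, since not every pair of same-numbered +PBS and +MSC libraries had a correlation of deviations over 0.1 (range -0.08 to 0.23). Replicate 1 libraries of different groups had a median correlation of 0.17, over 0.1 in 18 of 28 pairs. With the replicate block Tgfb3 and Tgfbr1 also passed over the weeks (adjusted p = 0.0452 and 0.0151) and Smad3 at 4 wpt (adjusted p = 0.0266). The lowest count of the 9 genes was 65, for Tgif1 in Intact.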
